A study of Drosophila melanogaster with 4 samples.

Results

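Isolated CBP regions are the sites of CBP occupancy that stand alone on the chromosome, with no other CBP region of either genotype nearby. Regions listed in gd7 embryos and in wild-type (WT) embryos were pooled and merged where they overlapped by at least 1 bp, which gave 3685 merged regions. A merged region was isolated when the gap between its edge and the nearest merged region on the same chromosome arm was over 20000 bp. Under this rule 567 merged regions (15.4%) were isolated. They held 672 of the 4952 original regions, 179 of 1939 in gd7 and 493 of 3013 in WT.

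CBP occupancy was measured by chromatin immunoprecipitation and sequencing in embryos 2 to 4 hours old, from mothers homozygous for gd7 and from w1118 mothers, the wild-type here. The gene *gastrulation defective* encodes a protease of the cascade that activates the Toll receptor, and in gd7 embryos the transcription factor Dorsal stays out of the nucleus and the whole embryo takes on a dorsal ectoderm fate. One antibody, raised in rabbit against *Drosophila* CBP, was used for both genotypes. Each genotype has 1 CBP library, pooled from about 10 immunoprecipitations, and 1 input library, so no difference between genotypes has a replicate check, no p-value is given, and intervals cover counting error alone.

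CBP, encoded by *nejire* in *Drosophila*, is a co-activator with histone acetyltransferase activity. It does not read a DNA sequence of its own and is brought to enhancers and promoters by transcription factors. Developmental control genes often carry several such elements spread over a long stretch of DNA, whereas genes used by every cell are often controlled from close to the start site.

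The value of a region is the log2 enrichment of CBP over input, averaged by the authors over the 5 highest consecutive positions. Only the highest 5% of values in each genotype were kept, so the lowest listed value was 1.93 in gd7 and 1.88 in WT. A region in 1 list alone therefore has an unknown, lower or shorter signal in the other genotype. Widths are the end minus the start, on release 5 of the genome. The members were chosen from the positions of listed regions, so spacing, width, value and presence in each list are described and not tested.

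The gap to the nearest merged region had a median of 35525 bp among isolated regions, with quartiles of 26005 and 52465 bp. Among the other 3118 merged regions the median gap was 1890 bp. Isolated regions listed in gd7 only had a median gap of 30240 bp, those in both lists 31255 bp and those in WT only 37275 bp. The most remote region with neighbours on both sides lay on X from 21858060 to 21858340, with 379890 bp to the nearest one, and was listed in WT only with a value of 2.10. Next came WT-only regions nearest to *CG1142* on 3R, with a gap of 286125 bp and a value of 2.23, and to *CG3107* on 2R, with 265965 bp and 1.93. All but 2 of the 10 most remote regions were in WT only. The exceptions were a gd7-only region on 2L from 18305280 to 18305700, with 2.44, and a region at *Rm62*, the gene of a DEAD-box RNA helicase, with 2.29 in gd7 and 2.98 in WT.

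The limit of 20000 bp cut through a continuous range of gaps. Just inside it lay a gd7-only region on 2R with a gap of 20055 bp, a region in both lists at *CG42817* with 20090 bp and a WT-only region at *VhaM8.9*, which encodes a subunit of the vacuolar proton pump, with 20195 bp. Just outside it lay regions on X with 19985 and 19950 bp and a WT-only region at *Sox21a*, a Sox-family gene, with 19915 bp.

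**Figure D1:**
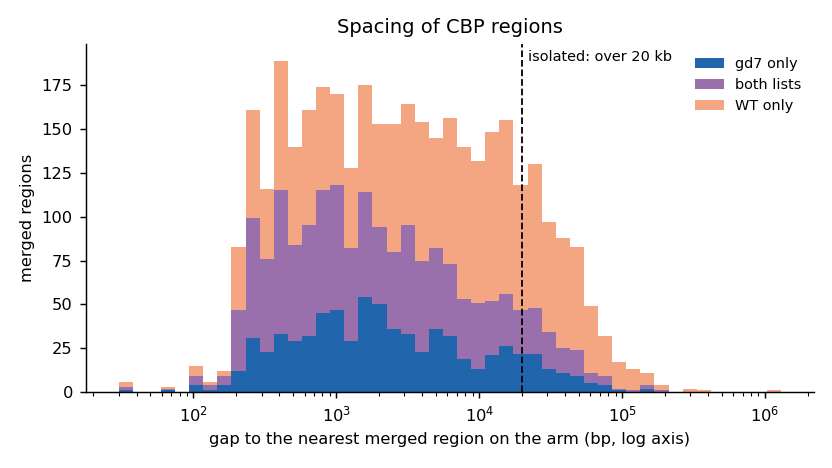
Number of merged CBP regions (vertical axis) by the gap to the nearest merged region on the same arm (horizontal axis, bp, log scale), stacked by presence in gd7 only, in both lists or in WT only. The dashed line marks 20000 bp; the 567 regions to its right are the isolated ones, and 393 of them are WT only.

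Isolated regions were found on every arm. The isolated share of merged regions was 17.4% on 2L, 14.8% on 2R, 15.5% on 3L, 14.0% on 3R and 15.3% on X, which is 4.33 to 5.12 isolated regions per Mb over these 5 arms. The small chromosome 4 held 8 isolated regions among 29 merged regions (27.6%), of which 7 were in WT only and 1 in both lists. At the ends of the arms, 9 isolated regions had a neighbour on 1 side alone. Among these were a region at *CG12581* at the start of 3R and a region at *CG11023* at the start of 2L.

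Isolated CBP regions were mostly listed in WT only. Of the 567 isolated merged regions, 74 (13.1%, 95% Wilson interval 10.5 to 16.1%) were in gd7 only, 100 (17.6%, 14.7 to 21.0%) in both lists and 393 (69.3%, 65.4 to 73.0%) in WT only. Among the other merged regions these shares were 20.8%, 34.2% and 45.0%. Read from the classes, 10.2% of gd7-only merged regions, 8.58% of those in both lists and 21.9% of WT-only ones were isolated.

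Counted over the WT list, 393 of 493 isolated regions (79.7%, 75.9 to 83.0%) had no gd7 region, beside 55.7% of the other regions and 59.6% of all WT regions. In the gd7 list the contrast was smaller, with an interval that includes the share of the other regions. There 74 of 179 isolated regions (41.3%, 34.4 to 48.7%) had no WT region, beside 36.9% of the other regions and 37.3% of all gd7 regions. The rule itself used the positions of both lists, since a WT region with a separate gd7 region close by is not isolated. When the gap was counted to regions of the same list alone, 27.1% of isolated WT regions overlapped a gd7 region, against 43.9% of the others. For gd7 regions these shares were 64.7% among isolated and 62.1% among other regions.

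Weak regions overlap less often than strong ones, so the shares were also taken at like values, in 5 equal groups of each list. In the weakest WT group, from 1.88 to 2.11, 7 of 108 isolated regions (6.48%, 3.17 to 12.8%) overlapped a gd7 region, against 26.9% of the others. In the strongest WT group, from 2.90 to 5.07, 40 of 85 isolated regions (47.1%, 36.8 to 57.6%) did, against 72.6% of the others. The isolated share was below that of the others in each of the 5 WT groups. In the gd7 list it lay below in 3 groups and above in 2, and the strongest group had 86.2% among isolated and 87.2% among other regions. The order held at like widths in WT, with 7.49% of isolated against 21.5% of other regions up to 300 bp wide, 19.9% against 40.0% over 300 and up to 500 bp, and 55.3% against 72.9% over 500 bp.

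**Figure D2:**
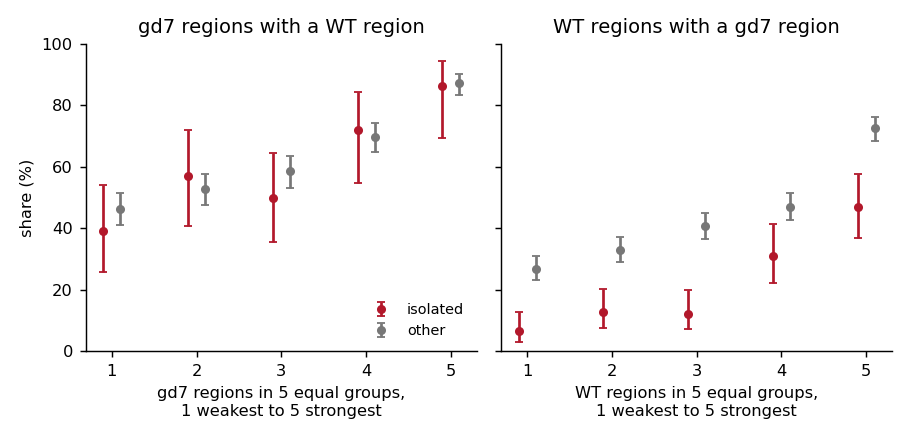
Share of gd7 regions that overlap a WT region (left panel, vertical axis in %) and of WT regions that overlap a gd7 region (right panel), for isolated (red) and other (grey) regions in 5 equal groups by value; bars are 95% Wilson intervals. In WT the isolated points sit below the others in every group, from 6.48% to 47.1%; in gd7 the intervals of isolated and other regions overlap in every group.

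Isolated regions were weak to strong, short of the highest values. In gd7 they ran from 1.96 to 4.12 with a median of 2.503, next to a median of 2.54 and a highest value of 5.06 for the other gd7 regions. In WT they ran from 1.88 to 4.53 with a median of 2.36, next to a median of 2.41 and a highest value of 5.07. A value of at least 3.5 was reached by 10 isolated gd7 regions (5.59%) and by 26 isolated WT regions (5.27%), beside 7.61% and 5.56% of the other regions in the gd7 and WT lists. None of the 10 strongest gd7 regions and 1 of the 10 strongest WT regions were isolated; among the 100 strongest of each list, 7 in gd7 and 15 in WT were, close to the isolated share of 9.23% over the gd7 list and 16.4% over the WT list.

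Isolated regions in both lists were stronger than those in 1 list alone. The gd7-only ones had a median gd7 value of 2.39 and those in both lists 2.62. In WT the median was 2.76 for isolated regions in both lists and 2.29 for WT-only ones. The WT-only median was nearly the same for the other regions, at 2.30. For regions in both lists, the isolated median was below that of the others in gd7 (2.62 against 2.69) and above it in WT (2.76 against 2.63).

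**Figure D3:**
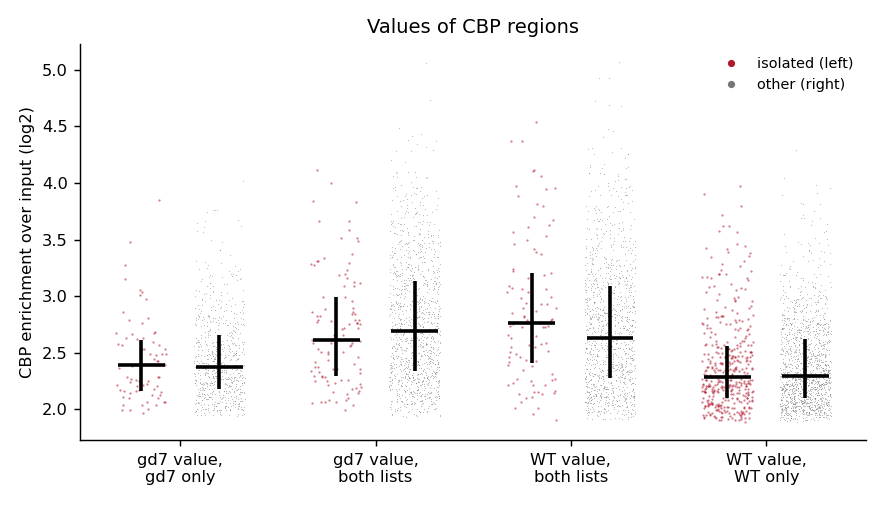
CBP enrichment over input (vertical axis, log2) of every region, by list and class, for isolated (red, left of each pair) and other (grey, right) regions; thick bars are the median and quartiles. Isolated regions in both lists have medians of 2.62 in gd7 and 2.76 in WT, above the isolated gd7-only (2.39) and WT-only (2.29) ones.

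Isolated regions were narrow. The median width was 385 bp in gd7, against 455 bp for the other gd7 regions, and 315 bp in WT, against 385 bp. The shortest width listed, 210 bp, was held by 15 isolated gd7 regions (8.38%) and 77 isolated WT regions (15.6%), against 6.48% and 9.72% of the others. Widths of 1000 bp or more were seen for 11 isolated regions in gd7 (6.15%) and 12 in WT (2.43%), whereas 14.4% and 7.66% of the other regions reached that width. The widest isolated region, at *CG9894* on 2L from 2750195 to 2755795, measured 5600 bp in WT with a value of 3.97. In gd7 the same stretch was listed as 3 regions, with values of 3.59, 3.23 and 2.83. Of the 100 isolated regions in both lists, 96 paired 1 WT region with 1 gd7 region, 3 had 2 gd7 regions and this one had 3.

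The strongest isolated region in WT lay at *CG11629* on 2L from 21899150 to 21899640, with 3.66 in gd7 and 4.53 in WT. It was followed by a region at *mid*, a T-box gene, on 2L from 5460980 to 5461645, with 2.96 in gd7 and 4.37 in WT. Its neighbouring paralog *H15*, also a T-box gene, had an isolated region of its own on 2L from 5403510 to 5404000, with 2.86 in gd7 and 3.81 in WT. At *eyg*, a Pax gene of eye and salivary duct development, the region on 3L from 12461155 to 12461505 had 2.85 in gd7 and 4.37 in WT. The homeobox gene *Gsc* (*goosecoid*) had 3.16 in gd7 and 4.06 in WT, on 2L from 594685 to 595280. Among the 10 strongest isolated WT regions, 9 were in both lists, and the gd7 value was the lower one at all 9. The exception was a region at *CG10651* on 2L from 20120905 to 20121290, with 3.97 in WT and no gd7 region.

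In gd7 the strongest isolated region lay at *sala* on 2L from 11485810 to 11486335, with 4.12 in gd7 and 2.52 in WT. The region at *CG12581*, at the start of 3R, had 4.00 in gd7 and 2.82 in WT, and one at *CG13921* on 3L had 3.66 in gd7 and 2.504 in WT. The third strongest, on 3R from 20123040 to 20123915, was in gd7 only with 3.85. Of the 10 strongest isolated gd7 regions, 9 were in both lists. The gd7 value was the higher one at 6 of these and the lower one at the other 3, among them *CG11629* and *CG9894*.

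Across the 100 isolated WT regions that overlapped a gd7 region, the gd7 value was lower at 65 and higher at 35. The median difference, gd7 minus WT, was -0.19 on the log2 scale, with quartiles of -0.66 and 0.28. Among the other 1117 shared WT regions it was 0.08, with 505 lower and 612 higher. The mean over isolated regions was 2.71 in gd7 and 2.87 in WT. In the strongest WT group, 38 of 40 isolated regions were lower in gd7, with a median of -0.69. Among its other regions 274 of 376 were lower, with a median of -0.49. With the WT groups numbered from the weakest, the isolated median was also below that of the others in groups 1, 2 and 4. These pairs were 0.39 against 0.56, 0.36 against 0.47 and -0.21 against -0.12. In group 3 the order was reversed, with 0.90 over 13 isolated regions against 0.25 over 202 others. Isolated shared regions also lay more often in the strongest group, at 40 of 100 against 376 of 1117. Taken by gd7 value, the strongest group had a positive median, 0.75 over 25 isolated regions, against 0.63 over 313 others. The sign in the strongest group thus depended on which list set the groups.

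More than 2-fold higher values in gd7 were found at 8 of the 100 isolated shared regions (8%, 4.11 to 15.0%), beside 10.2% of all shared WT regions. More than 2-fold lower values were found at 10 (10%, 5.52 to 17.4%), beside 5.92% of all. Both intervals include the share over all regions. As each list has a lowest value, only WT values above 2.93 could be called lower and only gd7 values above 2.88 higher. By median, isolated shared regions stood above the others in WT and below them in gd7, so the calls were not equally open to both. Where no gd7 region was listed, 43 isolated WT regions exceeded the lowest gd7 value by more than 2-fold. They were 10.9% of the 393, beside 9.47% of all WT regions without a gd7 region. Of the 74 isolated gd7 regions without a WT region, 8 (10.8%) exceeded the lowest WT value by more than 2-fold. The share was 12.6% of all gd7 regions without a WT region.

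**Figure D4:**
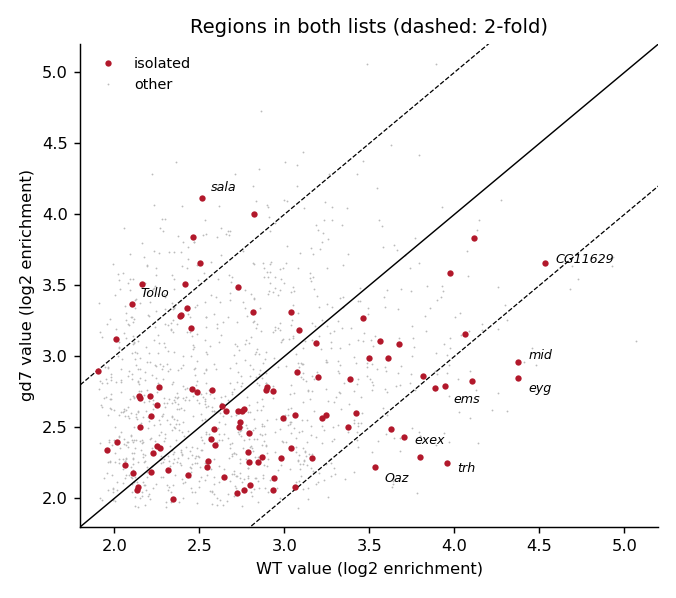
The gd7 value (vertical axis) against the WT value (horizontal axis), both log2 enrichment over input, for WT regions that overlap a gd7 region: 100 isolated (red) and 1117 other (grey). The solid line marks equal values and the dashed lines a 2-fold difference; 8 isolated regions lie above the upper and 10 below the lower dashed line, and *trh*, *eyg* and *mid* are among those 10.

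The nearest gene was known for 7 of the 10 isolated regions more than 2-fold lower in gd7. At *trh*, which encodes the basic helix-loop-helix factor of tracheal cells, the region on 3L from 378000 to 378455 had 2.25 in gd7 and 3.96 in WT, a difference of -1.71. The regions at *eyg* and *mid* differed by -1.53 and -1.41. At *Oaz*, a zinc finger gene on 2R, the values were 2.22 in gd7 and 3.53 in WT. At *exex*, the homeobox gene of motor neurons, they were 2.43 in gd7 and 3.70 in WT, on 3L from 7940905 to 7941465. The head homeobox gene *ems* had 2.79 in gd7 and 3.95 in WT on 3R, and the HMG-box gene *Sox14* had 2.78 in gd7 and 3.89 in WT on 2R. Of these 7, the WT regions at *mid*, *eyg*, *exex* and *ems* were promoter-proximal, with the centre no more than 500 bp from a start site. The same held for 3 of the 5 named regions more than 2-fold higher in gd7 and for 65% of the isolated regions in both lists on 2L, 2R and 3L. At *H15* and *Gsc* the differences, -0.95 and -0.90, stayed short of 2-fold, as did that at *HGTX*, an Nkx6-type homeobox gene, with 2.60 in gd7 and 3.42 in WT. Drops of like size were also seen at *caps* (-0.98), *stv* (-0.87), *CG11629* (-0.87) and *Gpdh* (-0.87).

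The nearest gene was known for 5 of the 8 isolated regions more than 2-fold higher in gd7. The difference at *sala* was 1.60. At *Tollo*, which encodes a receptor of the Toll family, the region on 3L from 15255205 to 15255590 in gd7 had 3.37 in gd7 and 2.10 in WT, a difference of 1.27. At *CG42669* on 3L the values were 3.51 in gd7 and 2.42 in WT, and *CG12581* and *CG13921* differed by 1.18 and 1.16. Regions without a known gene lay on X from 8165255 to 8165780, with 3.84 in gd7 and 2.47 in WT, and on 3R from 16578905 to 16579290, with 3.51 in gd7 and 2.17 in WT. The difference was under 2-fold at *blot* on 3L, with 3.34 in gd7 and 2.43 in WT. At *halo*, which acts on lipid droplet transport in the early embryo, the values were 3.31 in gd7 and 2.82 in WT.

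Some isolated regions had almost the same value in both genotypes. At *drl*, a Wnt receptor gene of the Ryk family, a region on 2L had 2.65 in gd7 and 2.63 in WT. At *sfl*, which encodes a heparan sulfate sulfotransferase, the values were 2.19 in gd7 and 2.21 in WT. At *wb*, the gene of a laminin alpha chain, they were 2.62 in gd7 and 2.65 in WT. Over the 100 isolated shared regions the centres in gd7 and WT lay a median of 70 bp apart, and at 88 of them within 200 bp, next to 76.9% of the other shared regions. The gd7 region was wider at 32, of equal width at 10 and narrower at 58, whereas among the others it was wider at 541, equal at 59 and narrower at 517.

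The strongest isolated regions with no gd7 region, after *CG10651*, were on X from 17662120 to 17662505 with a WT value of 3.904 and on 3R from 26738075 to 26738495 with 3.80. With a known gene, *CG2993* had 3.62 and *Ugt86Da*, a UDP-glycosyltransferase gene, had 3.58. A region at *nub*, which encodes a POU-homeodomain factor, had 3.56, on 2L from 12586945 to 12587295. One at *shot*, the gene of a spectraplakin that links actin and microtubules, had 3.44, and those at *Cad86C*, a cadherin gene, and *Wnt4*, a Wnt ligand gene, had 3.42 and 3.38. Each stood more than 2-fold above the lowest gd7 value of 1.93.

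Of the 74 isolated gd7-only regions, the strongest after the one with 3.85 lay on X from 9360260 to 9361170 with 3.48 and on 3R from 10679445 to 10679970 with 3.27. Nearest genes were known for 8 of them, all on 2L, and in all 8 the centre was beyond 500 bp of a start site. Most gd7 regions with a known start site were that far away. Only 33.3% of the 21 isolated and 32.9% of the 149 others lay within 500 bp, and 8 regions are few. The 8 included *CG31928*, with a gd7 value of 2.86, and *Ir21a*, an ionotropic receptor gene, with 2.54. Another was *Pvf3*, which encodes a ligand of the PDGF and VEGF type, with 2.42.

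Isolated WT regions lay close to start sites more often than other WT regions. Start sites were assigned to all WT regions of 2L, 2R and 3L, and on these arms 201 of 290 isolated regions (69.3%, 63.8 to 74.3%) were centred within 500 bp of one, against 738 of 1411 others (52.3%, 49.7 to 54.9%). A distance over 500 and up to 5000 bp was seen for 20% of isolated and 32.5% of other regions. Isolated regions farther than 5000 bp made up 10.7%, against 15.2%, and those farther than 10000 bp numbered 19 (6.55%, against 6.95%). Regions with no listed gd7 region are more often promoter-proximal throughout the WT list, so the classes were also taken apart. Among regions in both lists, 65.0% of isolated (39 of 60, 52.4 to 75.8%) and 42.6% of other regions were within 500 bp. Among WT-only regions these shares were 70.4% (64.2 to 76.0%) and 60.3%.

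The share near start sites exceeded that of the other regions most among weak regions. In the weakest WT group 78.6% of isolated and 57.6% of other regions were within 500 bp of a start site, and in the second 78.5% and 48.3%. In the third group they were 70.5% (58.1 to 80.4%) and 54.5% (48.5 to 60.3%), with intervals that overlapped. In the fourth group the shares were 52.1% and 49.8%, and in the strongest 58.7% and 51.5%, again with overlapping intervals. Isolated promoter-proximal WT regions had a median value of 2.26, and isolated regions farther away 2.47. Among the isolated promoter-proximal regions 19.4% overlapped a gd7 region, and among the isolated distal ones 23.6%. The other WT regions had 36.7% near start sites and 54.2% farther away. For gd7 regions the start site was known for the first 170 on 2L alone, where 7 of 21 isolated regions (33.3%) and 49 of 149 others (32.9%) were within 500 bp.

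**Figure D5:**
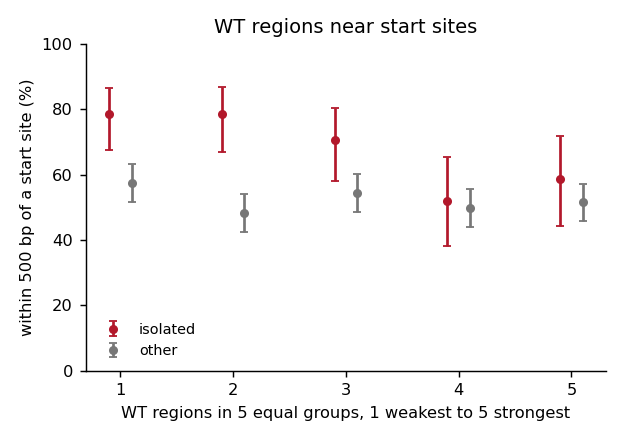
Share of WT regions on 2L, 2R and 3L with the centre within 500 bp of a start site (vertical axis, %), for isolated (red) and other (grey) regions in 5 equal groups by WT value; bars are 95% Wilson intervals. Isolated regions stand at 78.6%, 78.5% and 70.5% in the 3 weaker groups and at 52.1% and 58.7% in the 2 stronger ones; the intervals of isolated and other regions are apart in the 2 weakest groups and overlap in the other 3.

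Most genes with an isolated WT region had no other. On these 3 arms the isolated region was the only WT region nearest to its gene in 272 of 290 cases (93.8%), against 43.6% for the other regions, a contrast that the rule favours. Exceptions were *Eip75B*, a nuclear receptor gene of the ecdysone response, with 1 isolated region among 8 WT regions, *shot* with 1 among 5, and *dve*, a homeobox gene, and *fz2*, a Wnt receptor gene, each with 1 among 4. *CG30115* had 2 isolated regions.

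Among the gene lists, ribosomal protein genes had the highest share of isolated regions. They had 32 WT regions at 31 genes, and 10 of these regions (31.3%, 18.0 to 48.6%) were isolated, against 16.9% of all 1999 WT regions with a known gene. All 10 were within 500 bp of a start site and 0 of them overlapped a gd7 region. Overlap was also seldom seen among isolated WT regions in general, at 69 of the 337 with a known gene and at 6.48% in the weakest WT group. Of the other 22 regions at ribosomal protein genes 1 overlapped a gd7 region, and 31 of the 32 regions in all were within 500 bp of a start site. The isolated ones were weak, with a median of 2.11. The strongest was at *RpL30*, with 2.60 on 2L from 19009130 to 19009515, and the weakest at *RpL12* and *RpS29*, with 1.96 and 1.97. *RpL24* and *RpL38*, with 2.08 and 2.03, had no other CBP region within 104090 and 102200 bp. The one shared region of the list, at *RpLP2*, was not isolated and had 2.07 in gd7 and 2.85 in WT. Translation factor genes had 4 WT regions, of which the one at *Ef1alpha48D*, the gene of a translation elongation factor, was isolated, with 3.05 in WT only.

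All these lists cover only genes on 2L, 2R, 3L and the first part of 3R, where 298 of 732 WT regions had a known gene, so that members of the lists on X, on 4 and farther along 3R were not looked at. The share to set beside each of the lists below is the 16.9% isolated over all WT regions with a known gene. Within these limits, 17 dorsal-ventral patterning genes had 32 WT regions and 0 of them were isolated, which allows a share of up to 10.7% (upper 95% Wilson limit). The 5 homeotic genes covered had 0 of 12, which allows up to 24.2%. Of 41 WT regions at anterior-posterior patterning genes 3 were isolated (7.32%, 2.52 to 19.4%), at *ems*, at *nub* and at *gsb*, a segment polarity gene of the Pax family, which had 2.68 in WT only. Among 17 regions of Polycomb and trithorax group genes 1 was isolated, at *Pc*, which encodes the chromodomain protein Polycomb, with 2.20 in WT only. Cell cycle genes had 1 of 18, at *mus209*, the gene of the sliding clamp PCNA, with 2.20 in WT only. Cytoskeleton genes had 2 of 16, at *shot* and at *spir*, an actin nucleator gene, which had 2.03 in WT only. Shares for Polycomb and trithorax group, cell cycle and cytoskeleton genes were 5.88%, 5.56% and 12.5%, with intervals that include 16.9%. Regions of 1 gene that lie close together are not isolated under the rule, so genes with several regions lean to a low share. The lists are short and were not tested.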

How the data were processed

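The deposited lists hold, for each genotype, the start, end, centre and value of CBP regions. Reads had been aligned by the authors to release 5 with Bioscope 1.2.1. The log2 ratio of ChIP over input was taken every 35 bp and smoothed over 350 bp, the highest 5% of values were kept, and regions of at least 200 bp were joined over gaps of up to 200 bp. The deposited log2 values are lower by a constant, 1.93 in gd7 and 1.88 in WT, than those of the supplementary peak table of the study, and the constant was added back. Read depth is not part of the lists, and the authors did not scale the genotypes to each other.

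Overlap, gaps and differences (the highest overlapping gd7 value minus the WT value) were computed in Python 3.11.15 (pandas 2.3.3, numpy 2.4.6), with code tested on simulated data. Plots were drawn in matplotlib 3.10.9, and scipy 1.17.1 gave the Wilson intervals. Value groups were formed within each list before isolated regions were set apart. Nearest genes and start sites came from the rows of the peak table held here, 1999 in WT and 170 in gd7. They cover 2L, 2R and 3L and 298 WT regions on 3R, so 337 isolated WT regions and 81 isolated gd7 regions, most of these through the WT region they overlap, had a gene. Genes on X and 4 were not named. All 336 gene names of isolated WT regions matched the release 6 RefSeq table, used for names alone.

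Genes were named by rule: the 10 highest values in each list and among regions in 1 list alone, the 5 largest differences in each direction and the members of 8 gene lists. From each ranking the leading ones are given. Regions at the extremes of gap and width, nearly equal regions, *HGTX* and the genes with like drops, genes with several regions and *RpLP2* were picked after their values were seen. Members and lists were chosen with earlier results of these data known. Alternatives changed the distance, the lists used for the gap, the overlap rule, the cut-off, the 2-fold limit and the start site window. Promoter motifs were planned but not analysed, as no sequence was used here.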

Additional observations from a re-analysis of the deposited data

How the results depend on the processing

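The lower overlap of isolated WT regions with gd7 regions kept its direction at each distance and with the gap counted within 1 list: 22.5% against 47.5% at 10000 bp, 15.6% against 42.3% at 40000 bp and 27.1% against 43.9% within the list. So did the promoter share, at 69.7% against 49.2%, 76.6% against 53.5% and 69.7% against 51.0%. The median difference lay between -0.49 and -0.12. The value of -0.49 came with values of at least 2.5, a limit on the WT value itself, and positive medians in the weaker WT groups then drop out. The value of -0.12 came among widths over 300 and up to 500 bp, where the 95% order-statistic interval over regions, -0.48 to 0.10, included 0.

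Counts of members followed the distance. At 10000 bp there were 995 isolated merged regions, 336 gd7 and 859 WT regions. Of the 193 such WT regions that overlapped a gd7 region, 20 were more than 2-fold higher in gd7 and 20 lower. At 40000 bp there were 237 isolated merged regions, with 62 gd7 and 211 WT regions. Of the 33 such WT regions that overlapped a gd7 region, 3 were higher and 4 lower. With the gap counted within 1 list there were 434 gd7 and 621 WT regions. Of the 168 such WT regions that overlapped a gd7 region, 14 were higher in gd7 and 12 lower. The higher ones were then the more frequent, as they were over all shared WT regions, at 10.2% against 5.92%. With values of at least 2.5, 90 gd7 and 183 WT regions were left, with median values of 2.82 and 2.85 and widths of 525 and 385 bp. Of these, 71.1% and 37.2% overlapped the other list, 3 were higher and 10 lower, and 58.7% of the WT regions lay near a start site. A lower call needs a WT value above 2.93, so this cut-off could remove higher regions alone.

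With centres within 200 bp as the rule, 50.3% of isolated gd7 regions had a WT region. At 1.5-fold, 14 of the 100 isolated shared WT regions were higher in gd7 and 29 lower. Windows of 250 and 1000 bp gave promoter shares of 59.0% and 79.0%. Among widths over 300 and up to 500 bp alone, a setting chosen after seeing the data, 5 of 36 were more than 2-fold higher and 4 lower. Shares over all shared WT regions were not computed at 1.5-fold, at values of at least 2.5 or in this width range.

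No paired analysis was possible because each genotype has 1 CBP library. No library was left out for the same reason. Signal below the 5% limit is not listed, so the lists alone cannot tell absence from weaker binding. The paper measured gd7 signal inside every WT region and classed CBP as lost at only a small part of them. Most WT regions with no gd7 region are thus not losses of CBP by the paper's measure.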
